A study of Mus musculus with 367 samples.

Results

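The 30 genes described here encode the enzymes that build cholesterol and fatty acids, their regulators and 1 sterol carrier, and were read in single cells of healing mouse skin. The members were given as a list of symbols and found in the files by their Ensembl identifiers, so that they are 30 of the 50600 genes listed. They comprise 18 enzymes of sterol synthesis, 5 regulators (Srebf1, Srebf2, Scap, Insig1 and Insig2), the carrier Stard4, and 6 enzymes of fatty acid synthesis. The cells were viable tdTomato-high cells sorted from full thickness back wounds of Sm22-Cre;tdTomato mice of mixed background, aged 3 to 8 weeks by the labels (the methods give a narrower range within it). All groups shared this genotype and differed in the day of collection, PWD12, PWD15 or PWD21 (PWD, post-wounding day). Sm22-Cre is driven by the promoter of Tagln, a gene of contractile cells, and tdTomato then stays on in every descendant of a cell in which Cre was once active, so the colour records history and not present state. Full-length RNA was sequenced from 367 single cells in 7 microfluidic captures, 3 at PWD12, 2 at PWD15 and 2 at PWD21. Wounds of 2 to 3 mice were pooled for each day and it is not stated whether captures of a day came from different mice, so that the capture is the replicate and a p-value measures only the spread between captures.

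Cholesterol is built from acetyl units through the mevalonate pathway, which ends in farnesyl diphosphate, through squalene to the first sterol, lanosterol, and through a series of demethylation, reduction and isomerisation steps to cholesterol. Fatty acids are built from the same acetyl units by carboxylation, chain growth and desaturation. Transcription of both sets of enzymes is driven by the sterol regulatory element-binding proteins, membrane-bound factors that Scap escorts out of the endoplasmic reticulum when sterols are scarce and that the Insig proteins hold back when sterols are plentiful. Fibroblasts make lipid for membranes, and macrophages also take up lipid from dying cells.

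Cells were divided by 3 genes, none of them a member. Matrix cells had at least 1000 FPKM of Col1a1, less than 100 of Rgs5 and less than 50 of Tyrobp, mural cells had at least 500 of Rgs5 and less than 50 of Tyrobp, and myeloid cells had at least 500 of Tyrobp. FPKM counts fragments relative to the length of the transcript and to all fragments of the cell, so values of different genes are on a scale per length. After cells of low depth, very many genes or a high mitochondrial share were set aside, 292 cells remained, of which 198 were matrix, 57 mural and 26 myeloid cells and 11 were of no kind. Captures held 17 to 50 matrix cells, 0 to 18 mural cells and 0 to 11 myeloid cells. A kept cell held between 172975 and 7888389 fragments by an estimate from the files. The median was 1441151 fragments and 5808 genes in matrix cells, 1215787 and 5181 in mural cells, and 2097412 and 4962 in myeloid cells. Marker lists, each of which holds the gene used for the division, separated the kinds. The summed level of 8 myeloid markers ran from 19265 to 32292 FPKM in myeloid cells and from 6.56 to 60.2 in matrix cells, and Ptprc, the pan-leukocyte antigen, was detected in 22 of 26 myeloid and 1 of 198 matrix cells. Matrix markers were also read in mural and myeloid cells, and their part in the results on those cells was not tested. In mural captures the 6 matrix markers summed to 4639 to 19287 FPKM, the highest in PWD21 capture 1. The sum of 6 matrix markers was 872, 15124, 4777 and 91.8 FPKM in the myeloid cells of PWD12 capture 2, PWD15 capture 2, PWD21 capture 1 and PWD21 capture 2, against 20637 to 41214 in matrix cells. Of 5 markers of adipocytes, the cells best known for storing fat, Adipoq, Cidec and Lep were at 0 in all kept cells. The 5 markers summed to at most 0.409 FPKM in matrix and mural captures, while Plin1 reached 2168 FPKM in 1 myeloid cell.

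The sequence before the transcription start is shown for those of the 8 members lower in myeloid cells (given later) that have a stretch overlapping no annotated exon, since these bases are where their common regulators are known to act. Of the 30 members, 24 had a promoter in the RefSeq table (GRCm38.p6, 250 bases before to 50 after the start). The core of the sterol regulatory element (TCACNCCAC) was searched on both strands together with CCAAT, the box bound by NF-Y, and GGGCGG, a box bound by Sp1, which are known partners of the sterol factors. In the stretches that follow, the 150 bases before the start are written 5′ to 3′ on the strand of the gene, and capitals mark a match to any of the 3 motifs on either strand. Acaca and Hmgcs1 lie on plus strands, with stretches at chr11:84195288-84195437 and chr13:119690201-119690350. Insig2, Mvd and Sc5d lie on minus strands, with stretches at chr1:121332590-121332739, chr8:122443423-122443572 and chr9:42264301-42264450. For Insig2, which has 3 starts in the table, it is the one farthest upstream. The start of Acaca in the table lies inside the annotated gene (chr11:84129672-84401651). Its stretch is therefore not the sequence before the first annotated start of Acaca. The stretches of Acat2 and Cyp51 overlap exons, and Fdft1 had no entry.
Acaca: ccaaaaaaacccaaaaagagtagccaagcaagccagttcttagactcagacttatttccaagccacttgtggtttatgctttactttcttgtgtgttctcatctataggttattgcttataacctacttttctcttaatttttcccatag
Hmgcs1: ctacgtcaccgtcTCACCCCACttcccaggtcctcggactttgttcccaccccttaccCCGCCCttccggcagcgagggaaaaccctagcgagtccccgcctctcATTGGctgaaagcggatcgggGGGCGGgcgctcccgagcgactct
Insig2: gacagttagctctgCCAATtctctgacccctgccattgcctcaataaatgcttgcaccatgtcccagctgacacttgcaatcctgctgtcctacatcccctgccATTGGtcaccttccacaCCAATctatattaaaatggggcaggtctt
Mvd: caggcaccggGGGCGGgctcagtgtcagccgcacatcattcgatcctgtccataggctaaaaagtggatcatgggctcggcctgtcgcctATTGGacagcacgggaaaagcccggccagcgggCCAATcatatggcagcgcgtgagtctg
Sc5d: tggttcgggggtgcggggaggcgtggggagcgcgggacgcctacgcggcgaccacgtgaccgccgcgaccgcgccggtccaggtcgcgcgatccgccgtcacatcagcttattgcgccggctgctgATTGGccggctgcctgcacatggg
Hmgcs1 held the sterol core itself, with its first base 137 bases before the start, and was the only one of the 24 members to do so, against 1.44% of all 27025 genes in the table (1.24% of promoters). CCAAT was found in 20 of 24 members (83.3%) and in 41.1% of all genes, and GGGCGG in 20 of 24 (83.3%) and in 38.2% of all genes. Counted over promoters, CCAAT stood in 21 of the 32 promoters of members and in 37.4% of all promoters, and GGGCGG in 24 of 32 and in 35.7%. Acaca, whose product commits acetyl-CoA to fatty acids, held none of the 3 motifs in the window of the table. That window lies inside the gene and does not show the sequence before its first annotated start. A match is a string of letters and not a site of binding, and a window without one shows only that these letters are not in it.

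In matrix cells, the 6 genes with the highest mean were Ebp, Hmgcs1, Insig1, Insig2, Sc5d and Scd2, which include no enzyme of the squalene branch. Ebp, the isomerase that shifts the double bond of the sterol ring, had a capture mean between 17.8 and 129.5 FPKM with a median of 48.9. Hmgcs1, which condenses acetyl units at the entry to the mevalonate pathway, ran from 15.2 to 99.7 with a median of 37.5. Insig1 and Insig2, the endoplasmic reticulum proteins that retain Scap, ran from 14.9 to 68.6 and from 11.9 to 48.8 with medians of 40.5 and 36.8. These 4 genes and the next in order overlapped in their ranges over captures, so that no order among them held beyond the spread. Sc5d, a desaturase near the end of the pathway, ran from 6.79 to 44.3 FPKM with a median of 24.3, and Scd2, the stearoyl-CoA desaturase of many tissues, from 12.3 to 38.4 with a median of 22.3. In the squalene branch the highest level was that of Fdft1, squalene synthase, from 3.18 to 20.8 with a median of 9.15. Stard4, which carries cholesterol between membranes, was low, from 0.08 to 2.64 FPKM with a median of 2.07. The other enzymes after lanosterol were Cyp51 and Msmo1, with medians of 11.7 and 25.1 FPKM, the dehydrogenase Nsdhl with 17.0 and the reductases Dhcr7 and Tm7sf2 with 3.17 and 1.62, while Hsd17b7, a ketoreductase, had 0.885. Among the other mevalonate enzymes, medians ran from 2.93 for the isomerase Idi1 to 17.7 for Fdps. The factors Srebf1 and Srebf2 had medians of 12.8 and 2.17 and Scap of 5.85. At the other end, Elovl6, an elongase, did not exceed 1.41 FPKM in any capture of matrix cells, and Scd1, the desaturase of sebaceous gland and fat, did not exceed 2.65.

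**Figure D1:**
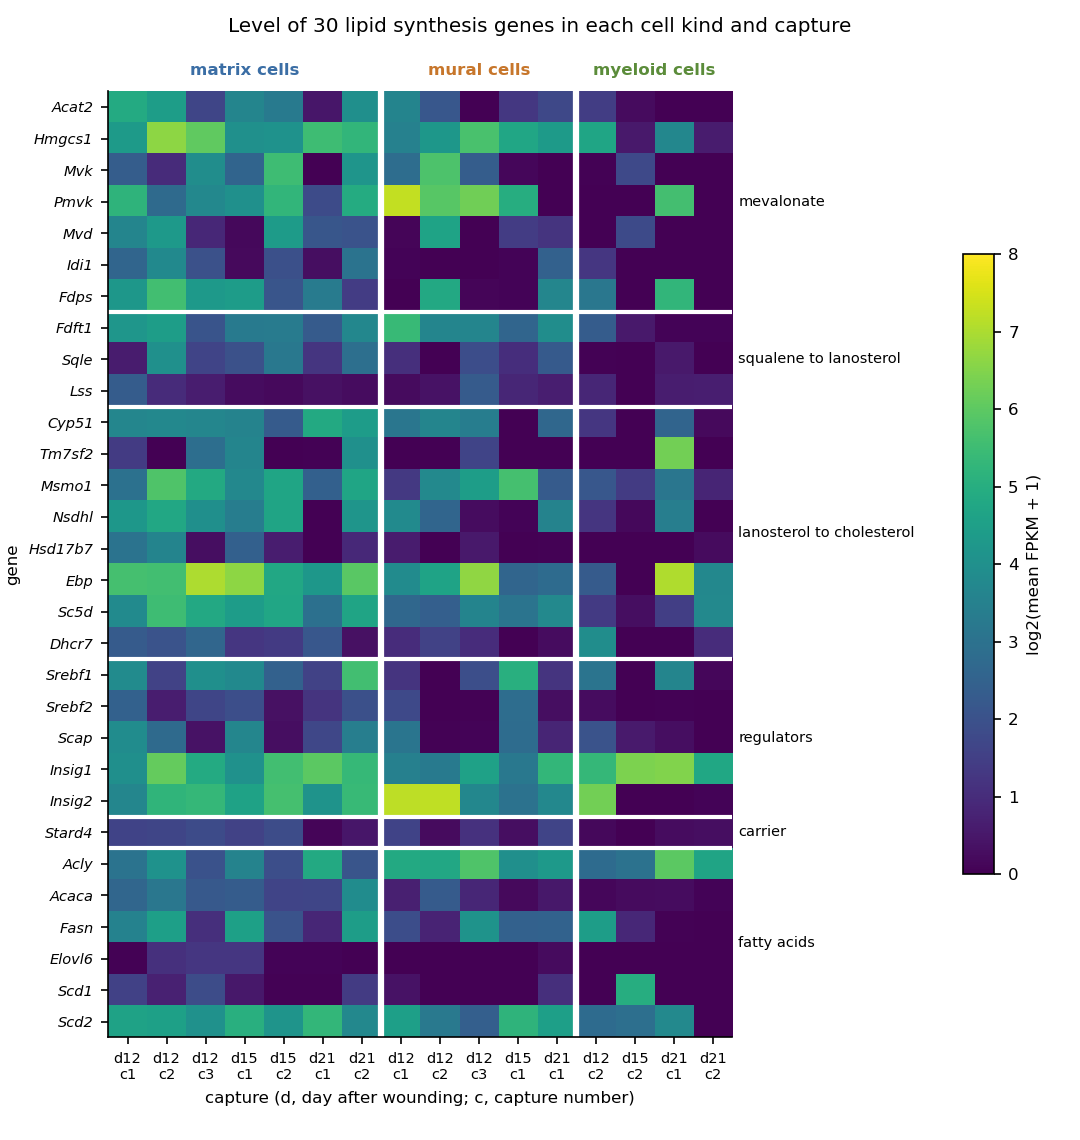
Heat map of log2(mean FPKM + 1) for the 30 genes (rows, grouped by step of the pathway) in each capture with at least 3 cells of a kind (columns: 7 matrix, 5 mural and 4 myeloid captures). Ebp, Hmgcs1, Insig1 and Insig2 are bright in all 7 matrix captures, Elovl6 is dark nearly everywhere, and most sterol enzymes are dark in the myeloid columns apart from single captures.

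Most members were read in few cells at a time. Over 198 matrix cells the share with any value above 0 ranged from 6.57% for Mvd, mevalonate diphosphate decarboxylase, to 84.8% for Insig1. The median share over the 30 genes was 30.3%. The median FPKM over these cells was above 0 for only 5 of the genes. A matrix cell was above 0 for a median of 10 of the 30. A level of at least 10 FPKM is used below as a clear one, since small values can stem from a few ambiguous fragments. Insig1 was clear in 59.6% of matrix cells (exact Clopper-Pearson 95% interval 52.4 to 66.5), Scd2 in 47.5%, Sc5d in 45.5% (38.4 to 52.7), Ebp in 36.4% (29.7 to 43.5) and Hmgcs1 in 33.3% (26.8 to 40.4). Lss, the cyclase that forms lanosterol, was above 0 in 47.5% of matrix cells and clear in 1.01% of them (0.123 to 3.60). The mean of a rarely read gene rested on few cells: 1 cell held 49.04% of all Srebf1 in matrix cells and 41.8% of all Tm7sf2. The intervals cover counting error only, and cells of a capture are not independent.

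Single matrix cells differed widely in how many sterol enzymes they held. Of the 18 enzymes, a matrix cell had a median of 2 at a clear level and at most 11, and 23 of 198 cells (11.6%) had none. At least 8 were clear in 9 matrix cells, of which 4 were among the 26 of PWD12 capture 2. That capture stood above the others, with a median of 4 clear enzymes against 2 or 3 in the other 6 captures, and with a summed enzyme level of 442 FPKM on average against 126 to 345. Its matrix cells were not the deepest (median 1204232 fragments) but had the most genes detected (median 6326 against 4857 to 6233), and they had the highest sum of 5 division markers (266 FPKM against 0.969 to 220). They also had the highest sum of 3 Schwann cell markers (37.96 FPKM against 0.0165 to 21.8) and the lowest sum of matrix markers (20637 FPKM against 25054 to 41214). The part of each in the difference was not tested. Across matrix cells the number of clear enzymes had a Spearman correlation of 0.43 with the number of genes detected and 0.12 with fragments (198 cells, which share captures).

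**Figure D2:**
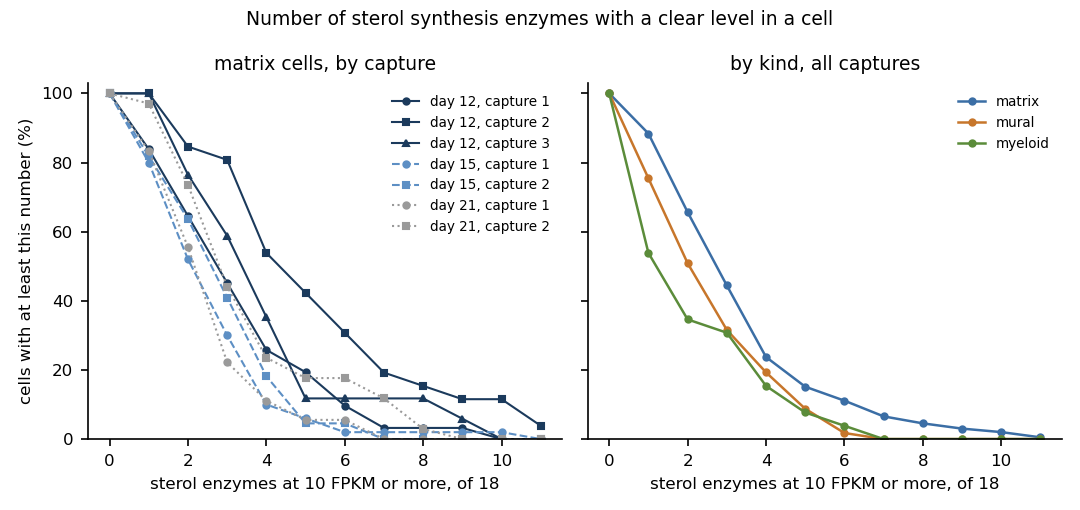
Percent of cells (vertical axis) with at least a given number of the 18 sterol enzymes at 10 FPKM or more (horizontal axis), for matrix cells by capture (left) and for the 3 kinds over all captures (right). The line of PWD12 capture 2 runs above the other captures from 2 enzymes on, and the matrix line lies above the mural and myeloid lines.

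Mural cells had a median of 2 clear enzymes, and 14 of 57 had none (24.6%). Myeloid cells had a median of 1, and 12 of 26 had none (46.2%). Myeloid cells had the highest median of fragments and the lowest median of genes detected of the 3 kinds, and across the 26 cells the number of clear enzymes had a Spearman correlation of 0.61 with genes and 0.58 with fragments (cells share captures). The part of either in the count was not tested. No mural and no myeloid cell had 8 or more. These counts describe cells and are not a test.

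Pairs of members varied together only weakly from cell to cell. After the mean of each capture was taken out, the median Pearson correlation of log2 levels over the 378 pairs of 28 members was 0.042 across 198 matrix cells, against 0.0064 over all pairs of 13552 genes and 0.078 over the pairs of 17 sterol enzymes. The highest values were 0.37 for Fdft1 with Insig1, 0.37 for Sc5d with Insig1, 0.36 for Fdps with Fdft1 and 0.34 for Hmgcs1 with Msmo1. Fdps and Fdft1 are consecutive steps, farnesyl diphosphate synthase and squalene synthase, and Msmo1 is the methylsterol monooxygenase. Sc5d and Insig1 were both clear in 69 cells, while Fdps and Fdft1 were in 14. The lowest value was -0.20, for Ebp with Acly. Cells of this comparison share captures and depth, and in values this sparse a weak correlation is a description only.

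Myeloid cells held less RNA of 8 of the 28 members tested than matrix cells did. The 8 genes were Acat2, Hmgcs1 and Mvd of the mevalonate steps, Fdft1 of the squalene branch, Cyp51 and Sc5d of the steps after lanosterol, the regulator Insig2, and Acaca of fatty acid synthesis. Profiles, log2(mean FPKM + 1) over the cells of a kind in a capture, were compared in limma in a fit blocked on the capture, with an adjusted p (Benjamini-Hochberg over 14022 genes) under 0.05 as threshold. At that threshold 15.7% of all genes tested differed between myeloid and matrix cells, and 12.6% were lower, against 8 of 28 members lower and 0 higher. Members lay lower in myeloid cells in 24 of 28 cases, with a median difference of -1.91, while the median over all genes was -0.85 and 72.1% of all genes were negative. At an unadjusted p under 0.05, 14 of 28 members were lower and 0 higher, beside 31% of all genes in either direction. Lss and Elovl6 did not reach a mean of 1 FPKM and were not tested.

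Acaca, acetyl-CoA carboxylase, had no overlap between the captures of the 2 kinds. The share of all genes without such overlap was not computed. Its mean was 0.112, 0.182, 0.194 and 0.0667 FPKM in the 4 myeloid captures and 2.14 to 13.8 in the 7 matrix captures, with a median of 4.05. The log2 difference was -2.52 (standard error 0.65, adjusted p = 0.019). No myeloid cell reached 10 FPKM, against 11.1% of matrix cells. The 0 of 26 cells has an exact Clopper-Pearson upper limit of 13.2%, and the limit of 3 counts is 11.5%, so that this share was not told apart from that of matrix cells. Sqle, squalene epoxidase, and Srebf2, the sterol factor most tied to cholesterol synthesis, also had groups that did not overlap, but by small gaps at low values. Sqle was at most 0.47 FPKM in myeloid and at least 0.513 in matrix captures, and Srebf2 at most 0.19 and at least 0.280. Their differences of -2.43 (adjusted p = 0.050) and -0.90 (adjusted p = 0.33) did not pass.

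Among the mevalonate enzymes, Hmgcs1 averaged 24.8, 0.448, 12.0 and 0.533 FPKM in the myeloid captures, each below the matrix cells of the same capture, and its difference was -2.64 (standard error 0.79, adjusted p = 0.037). The 3 myeloid cells of captures with fewer than 3 of them did not enter this fit. They held 68.1 FPKM of Hmgcs1 in PWD12 capture 1 (mean of 2 cells) and 314 in PWD12 capture 3 (1 cell), and with these cells in the fit, an alternative added after the data were seen, the difference was -1.13 (adjusted p = 0.42). Acat2, the cytosolic thiolase that joins 2 acetyl units, averaged 1.74, 0.168, 0 and 0 FPKM in myeloid captures and 0.412 to 28.4 in matrix captures, with a median of 11.6 and a difference of -2.76 (standard error 0.74, adjusted p = 0.023). Mvd averaged 0, 2.49, 0 and 0 in myeloid captures and 0.121 to 19.9 in matrix captures, with a median of 3.38 and a difference of -2.93 (standard error 0.81, adjusted p = 0.027). For Acat2 and Mvd most myeloid captures were at or near 0, and the fitted difference then depends on the pseudocount.

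Fdft1 averaged 4.07, 0.455, 0.064 and 0.0567 FPKM in myeloid captures, below the matrix cells of the same capture in 4 of 4, with a difference of -2.60 (standard error 0.73, adjusted p = 0.029). It was also the only member that differed between myeloid and mural cells (-3.05, standard error 0.85, adjusted p = 0.048). Mural captures held 40.7, 11.4, 11.3, 5.08 and 14.2 FPKM, all above the myeloid ones. That call was lost in every fit that left out a capture. Between myeloid and mural cells 6.55% of all genes differed at an adjusted p under 0.05, 4.43% lower in myeloid cells, and 21.6% did at an unadjusted p under 0.05, as did 4 of 28 members. Exons of Fdft1 overlap those of Ctsb on the other strand over 774 bases (18.3% of its exon length), and fragments from such bases cannot be told apart without strand. Other members have overlaps too. Among them are Fdps (26.7%, with Gm43738 on the same strand) and, on the other strand, Hmgcs1 (12.1%, Gm48342) and Cyp51 (3.76%, Akap9).

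After lanosterol, Cyp51, the demethylase of lanosterol, averaged 1.38, 0, 4.96 and 0.147 FPKM in myeloid captures and 3.95 to 27.8 in matrix captures, with a median of 11.7 and a difference of -2.84 (standard error 0.77, adjusted p = 0.024). Sc5d averaged 1.56, 0.228, 1.78 and 12.7 FPKM in myeloid captures, and its difference was -2.76 (standard error 0.80, adjusted p = 0.032). In 3 of the 4 captures the Sc5d mean was below the lowest matrix capture. Sc5d was clear in 11.5% of myeloid cells (2.45 to 30.2) and in 45.5% of matrix cells.

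The 2 Insig genes, which are paralogs, are given side by side. Insig2 averaged 78.1, 0, 0 and 0.0567 FPKM in myeloid captures, with a difference of -3.46 (standard error 1.08, adjusted p = 0.044), but it was above the matrix cells in PWD12 capture 2, where 1 cell held 92.0% of its RNA. Insig1 averaged 39.2, 85.0, 88.6 and 25.99 FPKM, above the median matrix capture in 2 of 4, and differed by 0.17 (standard error 0.67, adjusted p = 0.88). It was clear in 69.2% of myeloid cells (48.2 to 85.7), 59.6% of matrix cells and 35.1% of mural cells (22.9 to 48.9). Whether the differences of the 2 genes differ from each other was not tested.

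These calls depended on single captures. Without PWD12 capture 2, Insig2 and Fdft1 passed, beside 11% of all genes. Without PWD15 capture 2, Cyp51 and Acaca passed, beside 13%, and without PWD21 capture 2, Sc5d passed, beside 9.57%. Without PWD21 capture 1, 7 members passed beside 9.23%, of which Pmvk, Ebp, Nsdhl and Msmo1 are not among the 8. Matrix profiles average 17 to 50 cells and myeloid profiles 3 to 11, and a mean over few cells of a rarely read gene is often near 0. When log2 values were averaged over cells instead, the median difference was -0.39 over members and -0.21 over all genes, and 5 of 28 members passed beside 15.3% of all genes. Of these, Sc5d (-2.42, adjusted p = 0.0045), Hmgcs1 (-1.63, 0.015), Insig2 (-1.97, 0.027) and Acaca (-0.83, 0.039) are among the 8 above and Scd2 (-1.77, adjusted p = 0.012) is not. With a pseudocount of 10 no member passed (over all genes 344 higher and 704 lower, against 428 and 1772).

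**Figure D3:**
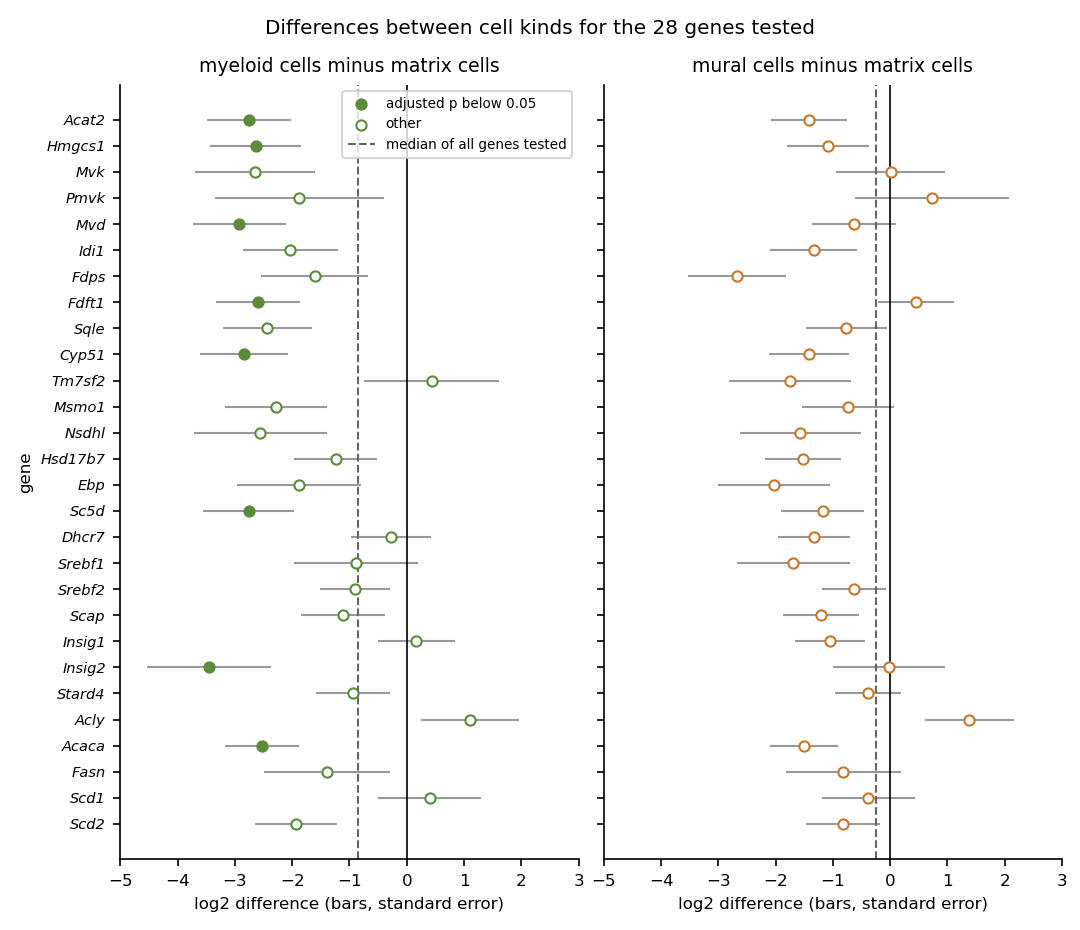
Log2 difference (horizontal axis) of myeloid (left) and mural (right) from matrix cells for the 28 genes tested (vertical axis), with bars for the standard error; filled points have an adjusted p under 0.05 and the dashed line is the median over all genes tested. On the left 8 points are filled, all below zero, and on the right none is.

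Of the fatty acid genes, Acaca alone passed in myeloid cells. Scd2 averaged 5.99, 6.58, 12.5 and 0 FPKM in myeloid captures and 12.3 to 38.4 in matrix captures, lower than the matrix cells of the same capture in 4 of 4 (difference -1.94, standard error 0.71, adjusted p = 0.082). Elovl6 was at 0 in all 26 myeloid cells, for which the limit of 3 counts is 11.5%. It was above 0 in 7.07% of matrix cells, so that the shares were not told apart. Acly, which makes cytosolic acetyl-CoA from citrate, averaged 5.88, 7.13, 62.4 and 24.2 FPKM in myeloid captures and 2.82 to 28.01 in matrix captures (difference 1.11, standard error 0.86, adjusted p = 0.40). Fasn, fatty acid synthase, averaged 20.8, 0.858, 0.022 and 0 FPKM (difference -1.39, adjusted p = 0.41). Scd1 was at 30.98 FPKM in the myeloid cells of PWD15 capture 2, all of it from 1 cell, and at most 0.0127 in the other 3 captures.

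Between mural and matrix cells 0 of 28 members passed, where 1.05% of all genes did. The comparison shares its matrix captures with the one above. Of the members 24 of 28 were lower in mural cells, with a median difference of -1.07 against -0.25 over all genes and 61.1% of genes negative. At an unadjusted p under 0.05, 3 members were lower and 0 higher, beside 12.1% of all genes in either direction. Fdps averaged 0, 27.6, 0.0757, 0.0589 and 11.6 FPKM in the mural captures and 1.70 to 46.5 in the matrix captures, with a difference of -2.67 (standard error 0.85, adjusted p = 0.18) and a lower value in 4 of 5 captures. Weighted by the number of cells it passed (-3.15, adjusted p = 0.030). Acaca averaged 0.639, 3.94, 0.822, 0.146 and 0.430 FPKM in mural captures, below the matrix cells in 5 of 5 (difference -1.51, standard error 0.59, adjusted p = 0.30). Ebp averaged 13.6, 24.2, 101, 5.11 and 5.99 FPKM, also below in 5 of 5 (difference -2.03, adjusted p = 0.44).

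Acly, Pmvk and Insig2 each had a mural capture above the highest matrix capture, without passing the test. So had Fdft1, Mvk, Mvd and Srebf2, with highest mural captures of 40.7, 53.9, 23.7 and 6.2 FPKM. Their highest matrix captures were at 20.8, 44.5, 19.9 and 4.6 FPKM. The share of all genes with this trait was not computed. Acly averaged 27.9, 26.7, 54.3, 15.0 and 18.6 FPKM in mural captures against a matrix median of 7.30, with a difference of 1.38 (standard error 0.78, adjusted p = 0.52), and it was clear in 33.3% of mural (21.4 to 47.1) and 13.6% of matrix cells (9.18 to 19.2). Pmvk, phosphomevalonate kinase, averaged 152, 59.5, 75.8, 30.9 and 0 FPKM, and Insig2 averaged 145, 149, 12.1, 7.13 and 12.4. Hmgcs1 was clear in 38.6% of mural cells (25.996 to 52.4), close to its share of matrix cells. The medians of fragments differ between the kinds, and shares were not adjusted for depth.

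**Figure D4:**
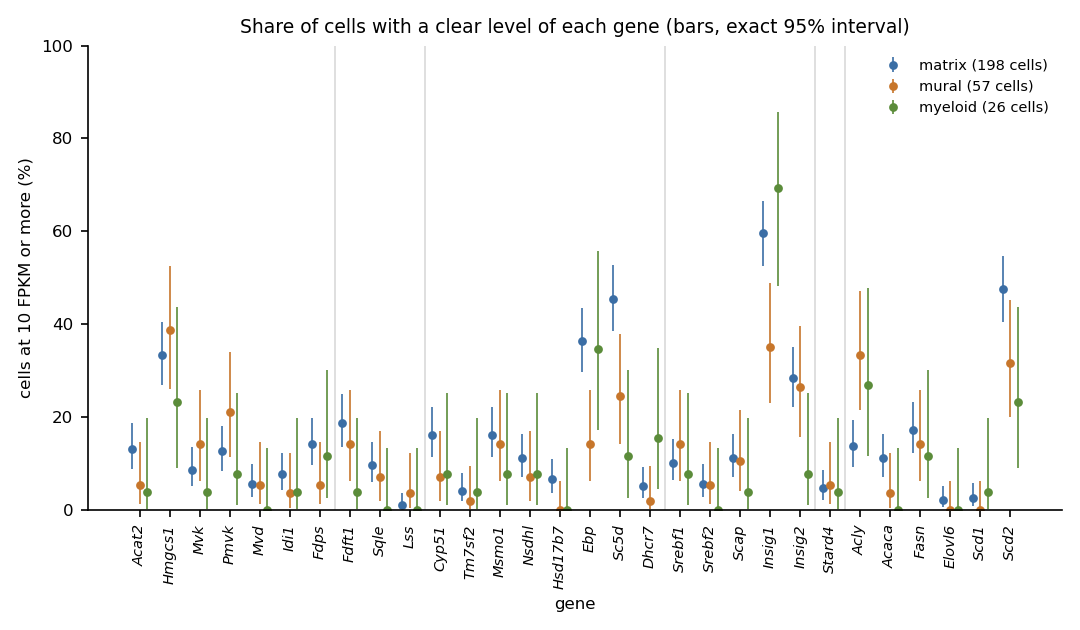
Percent of cells at 10 FPKM or more (vertical axis) for each gene (horizontal axis, by step) in 198 matrix, 57 mural and 26 myeloid cells, with bars for the exact 95% interval. Insig1, Scd2 and Sc5d have the highest matrix shares, at 59.6%, 47.5% and 45.5%, and Acly stands at 33.3% in mural and 13.6% in matrix cells.

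No member changed with the day of healing in matrix cells by this test. From PWD12 to PWD15, 0 of 28 members passed and 0 of 13552 genes did (0%). At an unadjusted p under 0.05, 1 member was lower beside 5.84% of genes in either direction. Hmgcs1 averaged 19.6, 99.7 and 65.1 FPKM in the 3 PWD12 captures, 15.2 and 16.1 at PWD15, and 44.8 and 37.5 at PWD21. Its PWD15 captures were the lowest of the 7, and the difference from PWD12 was -1.63 (standard error 0.68, adjusted p = 0.82). The share of all genes with such a ranking of a day was not computed.

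From PWD12 to PWD21, 0 members passed, beside 0.00738% of genes, and 1 had an unadjusted p under 0.05 beside 7.14% of genes. That member was Fdps, at 17.7, 46.5 and 19.1 FPKM in PWD12 captures and 9.14 and 1.70 at PWD21 (difference -2.32, standard error 0.93, adjusted p = 0.67). Its PWD15 captures were at 20.6 and 3.33. Stard4 averaged 2.07, 2.19 and 2.52 FPKM at PWD12, 1.98 and 2.64 at PWD15, and 0.08 and 0.404 at PWD21. The PWD21 values lay below all others, with a difference from PWD12 of -1.40 (standard error 0.82, adjusted p = 0.76). How many of all genes rank in this way was not computed.

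From PWD15 to PWD21, 0 members and 0% of genes passed. At an unadjusted p under 0.05, 1 member was higher beside 5.5% of genes in either direction. It was Cyp51, at 10.9 and 3.95 FPKM at PWD15, 27.8 and 20.7 at PWD21, and 11.6, 12.3 and 11.7 at PWD12 (PWD21 minus PWD15 1.70, standard error 0.75, adjusted p = 0.89). The medians of the members' differences were -0.31, -0.47 and -0.25 in the 3 comparisons, which share captures, and those of all genes -0.10, -0.19 and -0.05. The direction rested on single captures. Without PWD21 capture 1 the medians of PWD21 against PWD12 and against PWD15 were 0.17 and 0.33, without PWD21 capture 2 they were -1.31 and -1.02, and without PWD15 capture 1 the latter was 0.10. From PWD12 to PWD15 the median ran from -0.84 without PWD15 capture 1 to -0.04 without PWD12 capture 2.

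**Figure D5:**
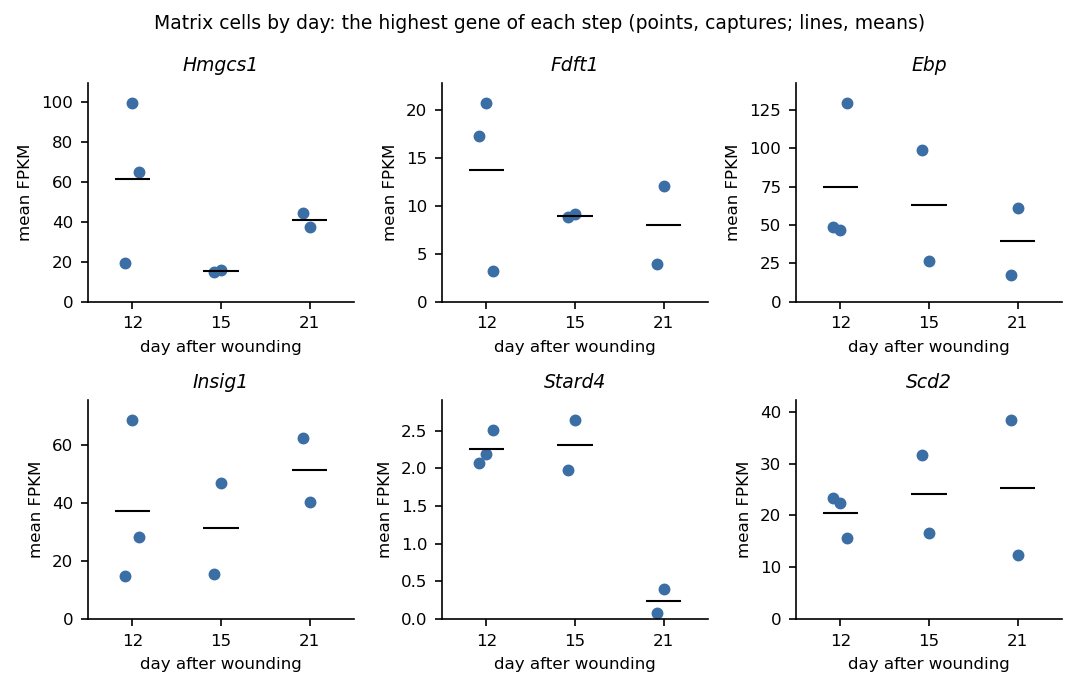
Mean FPKM (vertical axes, from 0) in matrix cells of each capture by day after wounding for the gene with the highest mean in each step; points are captures and lines day means. The PWD15 points of Hmgcs1 lie close together at 15.2 and 16.1, the PWD21 points of Stard4 lie at 0.08 and 0.404, and the points of the other genes overlap between days.

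In mural cells the later days (2 captures) were set against PWD12 (3 captures). Of 24 members tested 0 passed, as did 0% of 12704 genes, and 2 had an unadjusted p under 0.05 beside 4.13% of genes. Both are kinases of the mevalonate pathway. Pmvk averaged 152, 59.5 and 75.8 FPKM at PWD12, 30.9 at PWD15 and 0 at PWD21 (difference -3.98, standard error 1.38, adjusted p = 0.91), and Mvk 6.26, 53.9 and 4.16 at PWD12, 0.101 at PWD15 and 0 at PWD21 (-3.60, standard error 1.45, adjusted p = 0.91). Their values at PWD12 rested on few cells, with 50.7% of all Mvk in mural cells in 1 cell. Whether the difference between mural and matrix cells itself changed with the day was tested in a fit added after the data were seen, in which 0 of 28 members passed and 4 had an unadjusted p under 0.05, beside 5.45% of 13823 genes.

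Other genes of lipid synthesis and its control, a list of 30 that holds no member, were read by the same fits. In myeloid against matrix cells 3 of the 25 tested passed, all lower, beside the 12.6% of all genes that were lower, so that the count was no higher than the background. They were Rnf139, a ubiquitin ligase of the endoplasmic reticulum (-2.76, standard error 0.65, adjusted p = 0.013), Pcyt2 of phosphatidylethanolamine synthesis (-3.32, standard error 0.88, adjusted p = 0.022) and Elovl5, an elongase of polyunsaturated fatty acids (-2.96, standard error 0.92, adjusted p = 0.042). Rnf139 was at most 0.0367 FPKM in the myeloid captures and 1.51 to 13.5 in the matrix captures. Lpin1, a phosphatidate phosphatase, differed in the other direction, at 13.1, 0.135, 105 and 31.4 FPKM in myeloid and at most 2.12 in matrix captures (3.21, adjusted p = 0.050), just outside the threshold, with 3 of 4 captures above the matrix cells. None of the list passed in the other 6 comparisons.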

How the data were processed

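Viable tdTomato-high wound cells were captured on a microfluidic chip, with doublets excluded by microscopy per the methods, and no doublet caller was run here. The authors aligned reads to mm10 (Bowtie 1.0.0, RSEM, GENCODE) and deposited FPKM values of each gene in each cell, with no counts. Symbols, positions and exon overlaps came from a GENCODE annotation of GRCm38, which named 50376 of 50600 identifiers. Fragments per cell were estimated from the steps of the FPKM values. Cells with under 159000 fragments (27), over 15% mitochondrial FPKM (47) or over 11000 genes (1) were left out, and no 2 cells held identical values. FPKM was averaged over at least 3 cells of a kind per capture, and log2(mean + 1) was compared with limma 3.58.1 (R 4.3.3, trended variance, two-sided), for genes whose mean over profiles reached 1 FPKM. A difference on this scale understates the change of low genes. Kinds were fitted over 16 profiles with the capture as a block, and days without one. Scripts were tested on simulated data. The members and lists were chosen with earlier results of these data known. Members that passed are given with every myeloid capture. Matrix captures of these, and of the member with the highest matrix mean of each step, are given singly or as a range with a median. Further members were picked after their values were seen. Fits with at least 1 cell per profile and the test of mural differences over days were added after the data were seen. Other settings were the pseudocount, the filters, the scaling, the weights, the summary over cells and each capture left out.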

Additional observations from a re-analysis of the deposited data

Results flagged for a closer look

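Of 90 groups of captures (30 genes in 3 kinds of cells), 17 held a capture far from the others by Dixon's criterion, which chance alone reaches in about 1 in 20 groups of normally distributed values. Many of these groups are mostly 0, for which that rate does not hold and none was computed. Of the 17, 11 were in myeloid, 4 in mural and 2 in matrix cells.

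In matrix cells, Lss reached 4.07 FPKM in PWD12 capture 1, with 97.3% of it from 1 cell, and Nsdhl, a sterol dehydrogenase, stood at 0 in PWD21 capture 1 where the others held 9.41 to 27.1. In mural cells, Cyp51 stood at 0 in PWD15 capture 1, where the others held 5.40 to 11.5. Idi1 (4.64 FPKM) and Elovl6 (0.171) were highest in PWD21 capture 1, and Tm7sf2 (2.10, all from 1 cell) in PWD12 capture 3.

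In myeloid cells, PWD12 capture 2 stood highest for Acat2 (1.74 FPKM), Idi1 (1.40), Srebf2 (0.19) and Insig2 (78.1). PWD15 capture 2 stood highest for Mvk (2.38 FPKM), Mvd (2.49) and Scd1 (30.98). PWD21 capture 1 stood highest for Pmvk (47.8 FPKM), Sqle (0.47) and Tm7sf2 (77.9), and PWD21 capture 2 for Hsd17b7 (0.183). Myeloid profiles average 3 to 11 cells. The values of Mvk, Scd1, Pmvk, Sqle, Tm7sf2 and Hsd17b7 each came from 1 cell, and 1 cell held 92.0% of that of Insig2, 72.7% of Srebf2, 69.04% of Acat2, 67.8% of Mvd and 48.7% of Idi1.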

How the results depend on the processing

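No member changed sign under any alternative among the 9 calls. Between myeloid and matrix cells 8 members passed in the fit reported, beside 15.7% of all genes. With a pseudocount of 10, 0 passed beside 7.47% of all genes. With at least 5 cells 0 passed beside 5.88%, and with only these 2 kinds in the fit 0 beside 6.59%. With weights by cells 2 passed beside 8.79%, and with no filter 3 beside 4.3%. At a mean of at least 10 FPKM, 4 of 11 tested passed beside 25.2%. With averaged log2 values 5 passed beside 15.3%, and with a capture left out 1 to 7 beside 9.23% to 14%. Of the 8 genes, Acaca passed in 8 of 11 settings and 5 of 7 fits without a capture (adjusted p, limma, 0.0051 to 0.11), while Mvd passed in 4 of 11 and 3 of 7 (0.016 to 0.46) and Hmgcs1 in 5 of 12 and 1 of 7 (0.015 to 0.42). Between myeloid and mural cells 1 member passed in the fit reported. The count became 0 with a pseudocount of 10, all cells, at least 5 cells, at least 1 cell, no filter, weights or only the 2 kinds. In those settings 1.82% to 6.14% of all genes passed. With a capture left out it was 0 to 1, beside 3.34% to 6.93% of all genes. Fdft1 itself passed in 4 of 12 settings and 0 of 7 fits without a capture: with averaged log2 values the 1 call was Insig2, and without PWD21 capture 1 it was Pmvk. Between mural and matrix cells 1 member passed with weights by cells, beside 4.38% of all genes. Over all genes and with no capture left out, calls between myeloid and matrix cells ran from 829 to 3042 (2200 in the fit reported), between myeloid and mural cells from 308 to 2031 (918) and between mural and matrix cells from 48 to 614 (147). Between days they ran from 0 to 28, 0 to 70 and 0 to 1 (0, 1 and 0), the 28 and 70 with averaged log2 values and the 1 with a pseudocount of 10. With a capture left out the 3 comparisons of kinds ran from 1287 to 1951, 466 to 973 and 47 to 154. The causes were not tested.

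A replicate block on the capture number left 0 members called between days. Deviations of same-numbered captures from their day means had r from -0.0068 to 0.025. PWD15 and PWD21 each hold a single pair of captures, whose deviations mirror each other. These correlations therefore cannot tell whether the numbers pair the captures. Without the capture block 9 members passed between myeloid and matrix cells, beside 21.7% of all genes. Leaving out a later mural capture leaves 1, which is assumed to vary like the others. Depth is an estimate, and few myeloid cells limit every value on them.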
